A study of Homo sapiens with 30 samples.

Results

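Cells of U2OS, an established human osteosarcoma line, that carried a helix-deleted FOXP2 were compared with mock cells by RNA-seq gene counts. The libraries were chosen by label: the 5 libraries from cells transfected with the dhelix FOXP2 plasmid and the 5 mock libraries, both without CHIR99021, 10 of the 30 libraries in the series. The dhelix construct encodes human FOXP2 without residues 264 to 272, and cells received 500 ng of plasmid for 48 hours. An empty plasmid for the mock cells is not mentioned in the labels, so the protein and the transfected DNA itself cannot be told apart as sources of a difference from mock. The 5 libraries with full-length FOXP2 (WT FOXP2) and no CHIR99021 were transfected in the same way and were set beside the dhelix libraries in a second comparison. The other 15 libraries, which received the GSK3 inhibitor CHIR99021 at 5 µM for 72 hours beforehand, entered only the shared estimate of spread. All 30 libraries come from 1 cell line, and transfected cells were not separated from untransfected ones as far as the labels say. The series title asks how β-catenin acts on FOXP2 through several binding sites, and the deletion removes 1 short stretch of the protein.

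FOXP2 is a transcription factor of the forkhead family, which binds DNA through a winged-helix domain and pairs with itself, FOXP1 or FOXP4 through a leucine zipper. It mostly represses transcription and is known for its part in the development of speech and language circuits. In Wnt signalling, secreted ligands bind Frizzled and LRP receptors, the destruction complex of AXIN, APC, casein kinase and GSK3 is halted, and β-catenin accumulates and joins TCF/LEF factors at target genes. AXIN2, RNF43, ZNRF3, NKD1 and NOTUM are targets that feed back to damp the pathway. In bone-forming cells this pathway is known to act on differentiation and on matrix production.

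The coding DNA of the deleted stretch is shown because it is the only designed difference between the FOXP2 constructs. In the GENCODE 29 transcript of FOXP2 with 715 codons, codons 264 to 272 lie at chr7:114642424-114642450 (GRCh38, plus strand), within exon 7 of 17 and inside the coding sequence. The labels do not name the isoform cloned, and other FOXP2 transcripts place these residue numbers elsewhere. Capitals mark the 27 deleted bases, and 10 codons on either side are in lower case.
FOXP2 coding DNA: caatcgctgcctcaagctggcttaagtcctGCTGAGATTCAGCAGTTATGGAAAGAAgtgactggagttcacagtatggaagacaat

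Promoter sequence is shown for 4 genes that represent groups described below, with RefSeq windows (GRCh38.p14) of the 250 bases before the start site. Capitals mark matches to 5 motifs searched on both strands: the AP-1 motif TGANTCA, the forkhead motif TGTTTAC, the TCF/LEF motifs CTTTGAT and CTTTGTT, the heat shock element and the ER stress response element. The heat shock element was GAANNTTCNNGAA or TTCNNGAANNTTC and the ER stress response element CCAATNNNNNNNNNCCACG, and none of the 5 patterns contains another. IL8 (RefSeq symbol CXCL8, chr4:73740319-73740568, plus strand), a neutrophil chemokine that rose, holds a TCF/LEF match that begins at position -194 from the start site and an AP-1 match that begins at -137. CXCL14 (chr5:135578992-135579241, minus strand), a chemokine that fell, holds an AP-1 match that begins at -92. HSPA5 (chr9:125241344-125241593, minus strand), the ER chaperone BiP, which rose, holds an ER stress response element and an AP-1 match. HSPA8 (chr11:123062137-123062386, minus strand), a cytosolic chaperone that rose, holds 2 heat shock elements.
IL8: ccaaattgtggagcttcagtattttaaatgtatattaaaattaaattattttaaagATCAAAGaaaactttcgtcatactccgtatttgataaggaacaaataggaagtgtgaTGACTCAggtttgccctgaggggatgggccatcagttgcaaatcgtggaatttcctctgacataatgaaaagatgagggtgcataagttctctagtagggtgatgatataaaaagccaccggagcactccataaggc
CXCL14: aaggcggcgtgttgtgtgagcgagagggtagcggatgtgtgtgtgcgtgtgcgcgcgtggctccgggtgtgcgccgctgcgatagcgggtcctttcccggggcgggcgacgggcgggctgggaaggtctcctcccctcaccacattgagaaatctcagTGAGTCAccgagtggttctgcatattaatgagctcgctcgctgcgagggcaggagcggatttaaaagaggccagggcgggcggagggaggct
HSPA5: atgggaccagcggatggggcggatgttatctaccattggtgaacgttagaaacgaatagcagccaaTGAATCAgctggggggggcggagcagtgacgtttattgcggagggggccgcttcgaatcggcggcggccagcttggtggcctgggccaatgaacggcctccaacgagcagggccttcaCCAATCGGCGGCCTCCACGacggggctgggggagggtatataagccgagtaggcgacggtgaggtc
HSPA8: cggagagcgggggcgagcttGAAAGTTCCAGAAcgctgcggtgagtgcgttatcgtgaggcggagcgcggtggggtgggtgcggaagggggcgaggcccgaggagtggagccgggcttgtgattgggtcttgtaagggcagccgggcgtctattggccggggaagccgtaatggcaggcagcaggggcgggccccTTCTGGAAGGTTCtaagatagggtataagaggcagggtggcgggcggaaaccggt

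Over whole 300-base windows (250 before to 50 after the start site), 7.76% of 27305 promoters in the table held the AP-1 motif, 3.41% the forkhead motif, 7.71% a TCF/LEF motif, 0.487% a heat shock element and 0.0806% an ER stress response element. A window was matched for 12538 of the 18485 genes tested. Among matched genes that rose at least 2-fold (1451 genes), 9.58% held the AP-1 motif, 1.79% the forkhead motif and 5.44% a TCF/LEF motif. Among those that fell at least 2-fold (1829 genes), the shares were 5.8%, 3.01% and 6.34%. All matched genes stood at 5.3%, 2.23% and 4.96%. A heat shock element was in 0.689% of the genes that rose (10 genes), 0.328% of those that fell (6 genes) and 0.335% of all matched genes. For the ER stress response element the shares were 0.138% (2 genes), 0% and 0.128%. These are counts of letters, given without a test, and a match is not a binding site.

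These 10 libraries were deep and replicates were close, with 1 exception. Total counts ran from 15755842 to 29466652 over the 10 libraries. The biological coefficient of variation shared by all genes was 5.62%, an estimate over all 30 libraries and not over these 10 alone. The first principal component, which held 90.9% of the variance of log2 CPM over the 10 libraries, separated the groups. On the second, with 1.52%, dhelix replicate 5 stood apart at 26.4, against -8.42 to 11.1 for the others. Its mean chi-square per gene against its own group was 10.9, against 3.92 to 4.62 for the other dhelix libraries and 1.67 to 2.36 for mock. It was rich in RNA without long poly(A) tails: RNA28S5, the 28S ribosomal RNA, stood at 6233 CPM there and at 270.2 to 462 CPM in the other 4 dhelix libraries, and RMRP at 33.4 against 0.227 to 1.01 CPM. Without this library 14845 genes passed the threshold against mock, beside 14880 with it. The libraries with CHIR99021 alone, which enter the shared estimate of spread, were less alike, with a mean chi-square of 7.40 to 28.5 against their own group. CPM, the usual unit of RNA-seq levels, are counts scaled to the size of each library. A level is a mean ± SD of 5 libraries, a change is a log2 fold change ± its standard error, and "rose" or "fell" means an adjusted p under 0.05 in edgeR's quasi-likelihood test over all genes. In bulk RNA, fewer cells of a type and less RNA per cell cannot be told apart.

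FOXP2 (ENSG00000128573) was at 1.12, 0.685, 0.857, 1.25 and 0.576 CPM in the 5 mock libraries and at 4650.5, 6352, 5295, 4969 and 5303 CPM with dhelix FOXP2. Every dhelix library lay far above every mock library, and the change was 12.53 ± 0.16 on the log2 scale (adjusted p = 2.72e-31). With WT FOXP2 the level was 7069 ± 778 CPM, so the dhelix transcript stood at 0.752 times the WT transcript (two-sided exact permutation p = 0.0159, n = 5 each). Counts add plasmid and chromosomal transcripts. The deletion and the lower transcript level cannot be told apart in the comparison with WT FOXP2.

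Most of the transcriptome differed between the groups. Of 18485 genes tested, 14880 (80.5%) passed the threshold, 7328 (39.6%) higher and 7552 (40.9%) lower with dhelix FOXP2. At least 2-fold changes were fewer, 2370 genes higher (12.8%) and 3080 lower (16.7%), and the median change over all genes was -0.02. For 13531 of the genes tested (73.2%) the mock and dhelix libraries did not overlap, so a lack of overlap was common. Gene lists are described by their counts and medians, with no test of a list. Their counts are to be read beside the shares of all genes, 39.6% higher and 40.9% lower. The 12 leading genes per direction were picked among genes whose mock and dhelix libraries did not overlap, so their separation was set by the choice. The plot of fold change against level shows the leading genes at both edges.

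**Figure D1:**
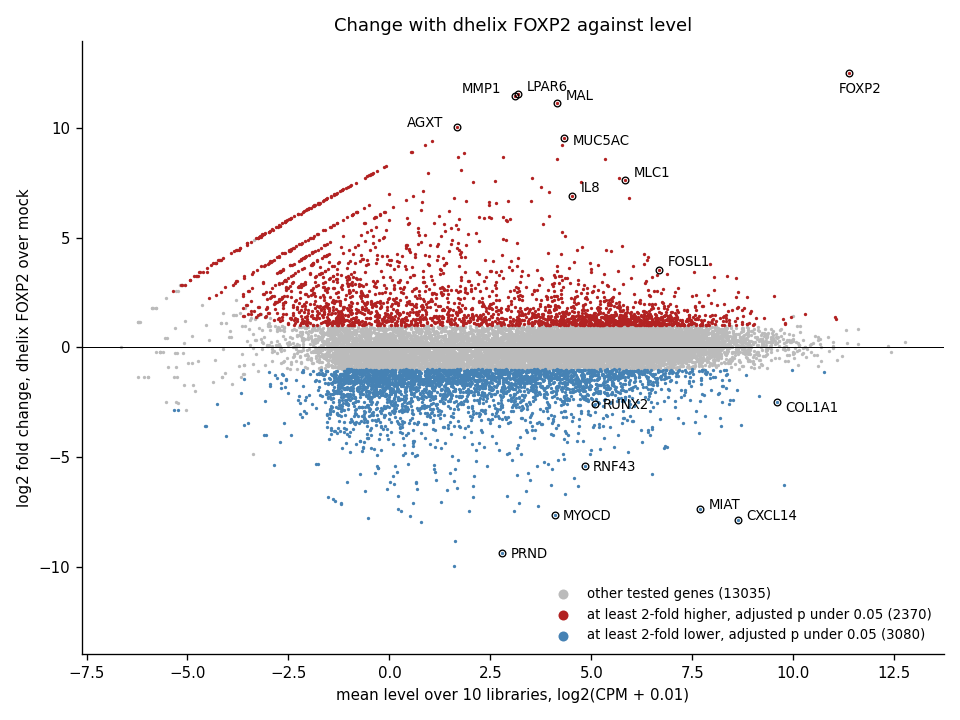
Each point is 1 of the 18485 genes tested, with the mean level in log2 CPM over the 10 libraries on the x axis and the log2 fold change of dhelix FOXP2 over mock on the y axis. Red and blue points passed the threshold with at least 2-fold higher (2370) and lower (3080) levels, and the named genes are labelled: FOXP2 sits at 12.53 and CXCL14 at -7.88.

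The genes that rose most had been at or near 0 in mock cells. LPAR6, a lysophosphatidic acid receptor, went from 0 counts in mock to 13.5, 21.4, 19.1, 17.8 and 18.9 CPM, at least 122-fold higher against a floor of 3 counts per library. MMP1, the interstitial collagenase, went from 0 counts to 16.9, 17.7, 16.7, 17.5 and 17.0 CPM, at least 115-fold higher. Both were present in all 5 dhelix libraries at similar levels. AGXT, a peroxisomal aminotransferase of liver, rose at least 42.7-fold, ENAM, an enamel matrix protein gene, at least 27.7-fold, and SPRR2D, a cornified envelope protein gene, at least 19.8-fold. MYCT1 rose by 9.26 ± 0.32, from 0.0491 to 38.5 CPM, and MUC5AC, a gel-forming secreted mucin, by 9.55 ± 0.22, from 0.0473 to 40.1 CPM. MAL, a membrane raft protein gene, had 1 count in all mock libraries together and 4733 with dhelix FOXP2, a ratio of 3748 (95% counting interval 672 to 148050.0). The pseudogene CES1P2, at least 24.5-fold higher, RP11-753N8.1, with 0 counts in mock and 2.90 CPM with dhelix FOXP2, and CTD-2532D12.4, with a ratio of 758 (95% counting interval 136 to 29960.0), completed the 12 leading genes. The single mock count of MAL came from replicate 2 and that of CTD-2532D12.4 from replicate 3, and without those libraries the fitted changes were 12.52 in place of 11.16 and 10.21 in place of 8.85.

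The genes that fell most included CXCL14, MIAT and MYOCD. CXCL14, a chemokine of epithelia and stroma, was at 769.9, 789, 822, 757 and 807 CPM in mock and at 4.42, 3.46, 2.53, 2.95 and 3.43 CPM with dhelix FOXP2. No dhelix library came near the mock range, and the change was -7.88 ± 0.08 (adjusted p = 6.11e-41). MIAT, a long non-coding RNA, went from 412 ± 9.46 to 2.45 ± 0.296 CPM (-7.39 ± 0.16). MYOCD, the coactivator of smooth muscle genes, was at 35.9, 32.6, 33.9, 33.9 and 33.1 CPM in mock and at 0.0359, 0.245, 0.0694, 0.227 and 0.278 CPM with dhelix FOXP2. It was lost almost entirely in all 5 dhelix libraries (-7.63 ± 0.14). PRND, a prion-like protein gene, KANK4, an adaptor of cell adhesions, ABCB5, a membrane transporter, and GABRR1, a GABA receptor subunit, had 1 or 2 counts left over all 5 dhelix libraries together. Their mock-to-dhelix ratios were 928 (95% counting interval 256 to 7667) for PRND, 832 (95% counting interval 149 to 32924) for KANK4, 455 (95% counting interval 81.1 to 18008) for ABCB5 and 301 (95% counting interval 53.4 to 11922) for GABRR1. CCDC67, RP11-798L4.1, AC074289.1 and KIAA1210 were also among the 12 that fell most, with KIAA1210 going from 16.8 to 0.0913 CPM (-7.45 ± 0.19). Where 1 dhelix library held most or all of the counts left, the fitted fall was larger without it: without replicate 1 it was -9.98 in place of -8.84 for KANK4 and -8.26 in place of -7.47 for AC074289.1, without replicate 2 -8.84 in place of -7.69 for CCDC67, and without replicate 4 -9.13 in place of -7.98 for ABCB5, -8.54 in place of -7.39 for GABRR1 and -8.60 in place of -7.46 for RP11-798L4.1.

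More Wnt pathway genes fell than rose, among ligands, receptors, β-catenin partners and targets. The feedback gene and pathway readout AXIN2 was at 21.6, 19.9, 22.0, 19.8 and 21.3 CPM in mock and at 9.94, 9.06, 10.1, 11.2 and 9.56 CPM with dhelix FOXP2. The groups did not overlap, and AXIN2 fell by 1.07 ± 0.10 (adjusted p = 3.15e-11). LEF1, a DNA-binding partner of β-catenin and itself a target, was at 37.3, 40.7, 39.5, 39.9 and 41.0 CPM in mock and at 27.0, 30.1, 33.4, 30.5 and 30.7 CPM with dhelix FOXP2, with no overlap and a change of -0.39 ± 0.06 (adjusted p = 2.25e-07). CTNNB1, which encodes β-catenin, was at 419, 432, 422, 439 and 418 CPM and at 289, 289.6, 288, 292 and 289.5 CPM. It fell by 0.56 ± 0.03 (adjusted p = 4.56e-20), a shift that is small in fold but larger than the spread in either group.

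Among Wnt ligands and secreted regulators, 5 of 23 tested genes rose and 12 fell, with a median of -0.23 beside -0.02 over all genes. The ligand WNT11 fell from 15.8 ± 0.764 to 0.446 ± 0.0702 CPM (-5.12 ± 0.23), WNT6 from 5.70 to 1.37 CPM (-2.05 ± 0.23) and the Wnt and BMP antagonist SOSTDC1 from 14.8 to 0.134 CPM (-6.79 ± 0.21). The ligands WNT7B (2.26 ± 0.14) and WNT10B (1.88 ± 0.10) rose, and WNT5A, a ligand of the β-catenin-independent branch, did not pass the test, at 15.3 and 16.1 CPM. Of 18 receptor genes 3 rose and 12 fell (median -0.77). ROR1, a Wnt5a receptor, fell from 116 ± 2.16 to 4.18 ± 0.677 CPM (-4.78 ± 0.07), and the R-spondin receptors LGR5 (-3.06 ± 0.18) and LGR4 (-2.62 ± 0.09) and the Frizzled receptor FZD7 (-1.74 ± 0.07) fell as well. The co-receptors LRP5 and LRP6 went to lower levels too, LRP6 from 188 to 117 CPM (-0.69 ± 0.04) and LRP5 from 46.9 to 23.7 CPM (-0.98 ± 0.08). FZD8 rose from 7.42 to 16.4 CPM (1.14 ± 0.08).

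Inside the cell, 18 of 25 genes for β-catenin, its partners and the destruction complex fell and 5 rose (median -0.56). JUP, which encodes plakoglobin, the close relative of β-catenin, fell from 42.1 ± 2.33 to 4.10 ± 0.451 CPM (-3.36 ± 0.10), and the factors TCF7L1 (-2.19 ± 0.11) and TCF7L2 (-0.88 ± 0.05) and the corepressor TLE2 (-1.45 ± 0.08) fell. DVL1, an adaptor that recruits AXIN to the receptors, rose from 40.1 to 117 CPM (1.55 ± 0.08), while its paralogs DVL2 (-0.60 ± 0.06) and DVL3 (-0.69 ± 0.05) fell. AXIN1 (0.47 ± 0.06), CSNK1A1 (0.59 ± 0.03) and GSK3A (0.29 ± 0.07), members of the destruction complex, rose, and GSK3B (-0.32 ± 0.03), the paralog of GSK3A, fell. APC also fell (-0.16 ± 0.05), but did not pass the test without a filter on low counts (adjusted p = 0.136). Of 21 feedback genes and direct targets 14 fell and 5 rose (median -0.83). RNF43, a ubiquitin ligase that removes Frizzled from the surface, was at 57.0, 53.7, 55.4, 57.6 and 56.3 CPM in mock and at 1.65, 1.01, 1.35, 1.02 and 1.48 CPM with dhelix FOXP2. It was nearly lost in each of the 5 libraries (-5.42 ± 0.18), whereas its partner ZNRF3 rose slightly (0.17 ± 0.05). NOTUM, which inactivates Wnt ligands, fell by 1.68 ± 0.10 and NKD1, an inhibitor of Dishevelled, fell by 1.33 ± 0.14. The targets MYC and CD44, which many other pathways also regulate, rose, MYC from 40.3 ± 1.61 to 230.3 ± 5.48 CPM (2.52 ± 0.05) and CD44 from 74.1 ± 2.11 to 451 ± 9.37 CPM (2.61 ± 0.04). The plot of single genes by library shows AXIN2, RNF43 and CTNNB1 with no overlap of mock and dhelix libraries, as for 73.2% of all genes tested.

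**Figure D2:**
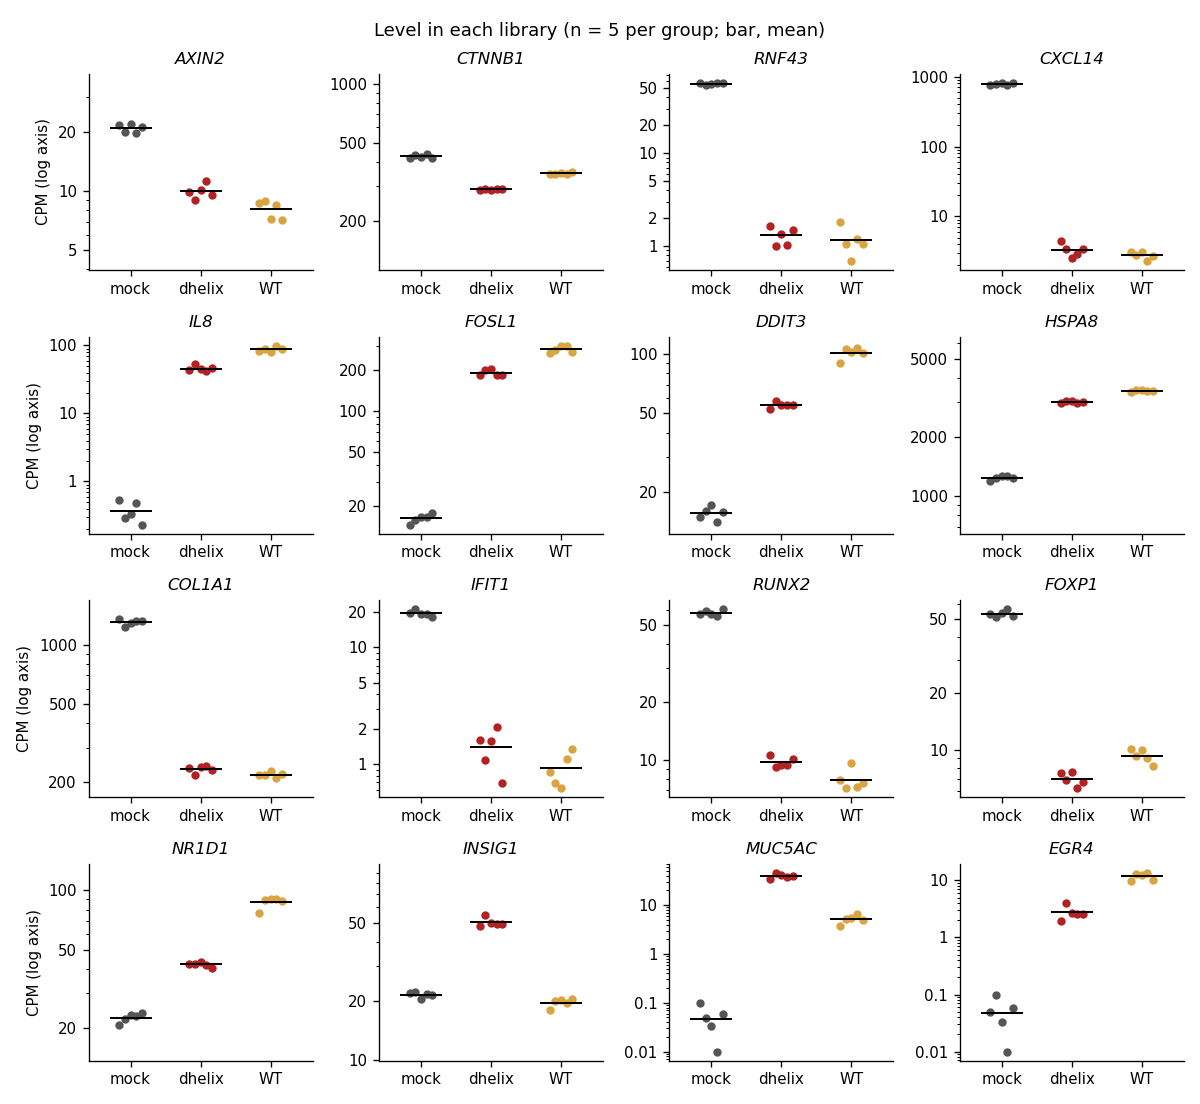
Each panel shows 1 gene, with a log axis of CPM and 1 point for each of the 5 libraries in mock, dhelix FOXP2 and WT FOXP2. Horizontal bars are group means, and values of 0 are drawn at 0.01 CPM. In every panel the dhelix libraries lie apart from the mock libraries. For several genes, among them MUC5AC, INSIG1, NR1D1, DDIT3, EGR4 and AXIN2, the dhelix libraries also lie apart from the WT libraries.

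Inflammatory signalling genes were mostly higher. Of 23 genes for NF-κB subunits and their feedback inhibitors, 20 rose and 1 fell, with a median of 1.05. TRAF1, an adaptor of TNF receptors, was at 0.923, 1.03, 0.989, 1.13 and 0.807 CPM in mock and at 36.4, 40.7, 38.4, 36.4 and 37.7 CPM with dhelix FOXP2. The levels differed in every library pair (5.27 ± 0.10, adjusted p = 1.20e-33). RELB, a subunit of the non-canonical branch, rose by 3.35 ± 0.09, TNFAIP3, which encodes the inhibitor A20, by 2.92 ± 0.07, NFKBIE by 2.85 ± 0.07 and BIRC3 by 2.63 ± 0.10. The subunits RELA (0.36 ± 0.04) and NFKB1 (1.18 ± 0.05) also rose, and TNFAIP2 fell slightly (-0.19 ± 0.07), a call that was lost without a filter on low counts (adjusted p = 0.108).

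Cytokine genes went in both directions. IL8 was at 0.534, 0.293, 0.330, 0.476 and 0.231 CPM in mock and at 43.9, 52.9, 44.5, 41.5 and 46.1 CPM with dhelix FOXP2, with no overlap and a change of 6.93 ± 0.14 (adjusted p = 5.61e-32). IL24, a cytokine of the IL-10 family, went from 0.202 ± 0.0818 to 80.3 ± 2.32 CPM (8.61 ± 0.15), and IL11, an IL-6 family cytokine, rose from 9.85 ± 0.527 to 157 ± 9.60 CPM. Of 24 interleukin, colony-stimulating factor and TNF family genes 11 rose and 7 fell (median 0.56); IL1A (5.63 ± 0.26), IL23A (3.98 ± 0.21) and IL32 (2.07 ± 0.09) rose, and IL15 (-1.89 ± 0.13) and IL18 (-0.62 ± 0.07) fell. Of 13 chemokine genes 5 rose and 6 fell, beside 39.6% and 40.9% of all genes tested. CXCL3 (4.37 ± 0.16) and CCL20 (2.86 ± 0.13) rose beside IL8, and CX3CL1 (-1.53 ± 0.07) and CCL26 (-1.95 ± 0.12) fell beside CXCL14. The chemokine median of 1.16 lay on CXCL6, which had 1 count in all 10 libraries together and did not pass the test.

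Immediate-early factors were mostly higher. Of 15 AP-1 and related factors 11 rose and 2 fell (median 1.18). FOSL1, the AP-1 subunit FRA1, was at 14.6, 15.9, 16.6, 16.6 and 17.8 CPM in mock and at 184, 198, 201, 181 and 184 CPM with dhelix FOXP2, with no overlap (3.54 ± 0.07, adjusted p = 1.18e-30). MAFF (3.72 ± 0.07), FOSB (4.21 ± 0.16), ATF3 (2.12 ± 0.05) and BATF2 (2.67 ± 0.21) rose as well, and JUND, the AP-1 subunit of resting cells, fell from 61.6 ± 2.83 to 25.4 ± 1.497 CPM (-1.28 ± 0.09). Among EGR factors and feedback genes of the MAP kinase pathway, 25 of 30 rose and 4 fell (median 0.85). EGR1 rose from 99.3 ± 4.39 to 401 ± 30.4 CPM (2.01 ± 0.07), ARC, a synaptic immediate-early gene, by 3.34 ± 0.12, the EGF receptor ligand HBEGF by 2.63 ± 0.05 and the ERK phosphatase DUSP5 by 2.56 ± 0.05. PHLDA1 fell by 2.27 ± 0.05 and EGR2 fell by 1.11 ± 0.12.

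More genes rose than fell in 3 stress lists. Of 41 ATF4 targets, which handle amino acid supply and the integrated stress response, 35 rose and 5 fell (median 1.03). ATF4 itself went from 300.1 ± 8.28 to 620.0 ± 14.3 CPM (1.05 ± 0.05). PPP1R15A, which ends the response by dephosphorylating eIF2α, rose by 2.36 ± 0.06, CHAC1, a glutathione-degrading enzyme, by 2.32 ± 0.10, the pseudokinase TRIB3 by 2.01 ± 0.07 and DDIT3, the transcription factor CHOP, by 1.82 ± 0.05. PHGDH, the entry enzyme of serine synthesis, fell by 1.03 ± 0.05, and the cystine transporter gene SLC7A11 fell by 0.85 ± 0.07. Of 27 ER chaperone and unfolded protein response genes 18 rose and 6 fell (median 0.48). HSPA5 was at 830.4, 846, 832, 824 and 837 CPM in mock and at 1220.2, 1230.1, 1231, 1199.9 and 1231 CPM with dhelix FOXP2. The groups did not overlap, and the change was modest (0.55 ± 0.03, adjusted p = 1.18e-18). DNAJB9 (1.62 ± 0.08), ERN1, the sensor IRE1 (1.63 ± 0.06), and XBP1 (0.89 ± 0.03) rose, and the folding genes HSP90B1 (-0.31 ± 0.05), CALR (-0.30 ± 0.03) and PDIA4 (-0.66 ± 0.03) fell.

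Heat shock chaperones formed the third list, with 24 of 31 up and 4 down (median 0.89). HSPA8 was at 1194, 1241, 1262, 1268 and 1242 CPM in mock and at 2965, 3059, 3062, 2996 and 3030.2 CPM with dhelix FOXP2. All dhelix libraries were above all mock libraries (1.28 ± 0.03, adjusted p = 2.55e-32). HSP90AA1, the inducible cytosolic HSP90, rose by 1.39 ± 0.05, its co-chaperone gene CHORDC1 by 1.39 ± 0.07 and the mitochondrial chaperonin gene HSPD1 by 1.29 ± 0.03. The small heat shock protein genes divided: HSPB8 rose by 1.73 ± 0.05, and CRYAB, the αB-crystallin gene, fell from 49.3 ± 2.94 to 10.9 ± 0.795 CPM (-2.18 ± 0.07) and HSPB1 fell by 0.85 ± 0.11.

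**Figure D3:**
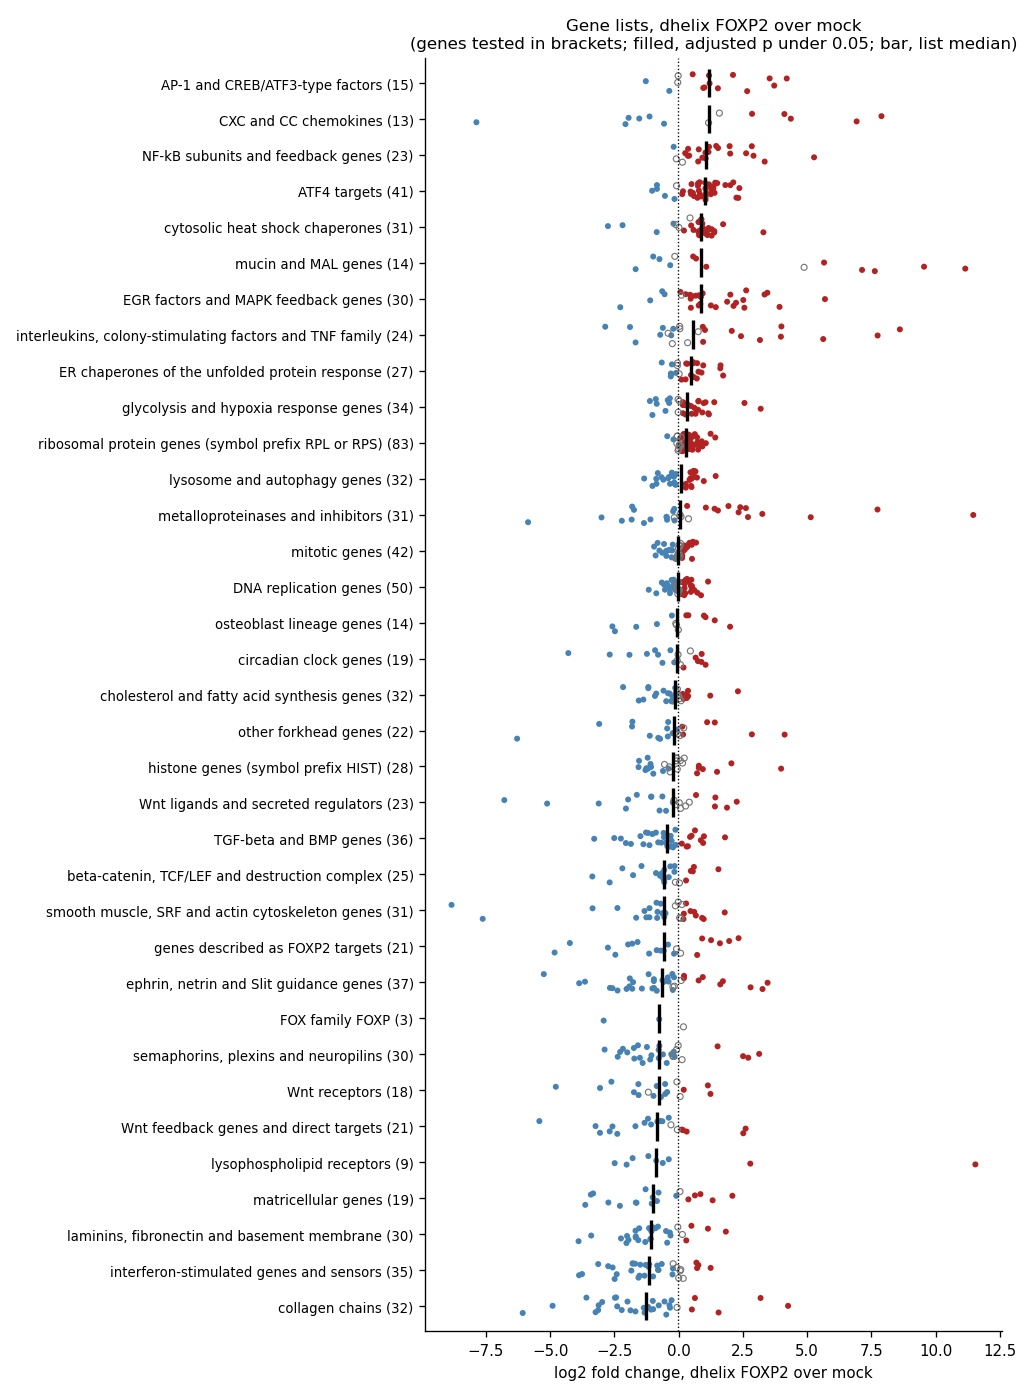
Each point is 1 tested gene of the list named on the y axis, placed by its log2 fold change of dhelix FOXP2 over mock on the x axis. Filled points passed the threshold, black bars are list medians and the dotted line is the median of all genes, -0.02. NF-κB, AP-1 and ATF4 lists have medians of 1.05, 1.18 and 1.03, and collagen and interferon lists of -1.26 and -1.15.

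Extracellular matrix genes were broadly lower. Of 32 collagen chains 26 fell and 5 rose (median -1.26). COL1A1, the main chain of bone collagen, was at 1353, 1229, 1292, 1330.1 and 1327 CPM in mock and at 238, 218, 241, 243 and 230.1 CPM with dhelix FOXP2. The groups were far apart (-2.48 ± 0.11, adjusted p = 7.92e-18). COL3A1 (-3.59 ± 0.07), COL5A2 (-3.23 ± 0.06), COL14A1 (-6.07 ± 0.27) and the cartilage collagen COL2A1 (-4.91 ± 0.28) fell too. COL17A1, the collagen of hemidesmosomes, went against them and rose from 1.93 ± 0.302 to 36.4 ± 1.69 CPM (4.26 ± 0.10), as did COL13A1 (3.19 ± 0.07) and COL27A1 (1.55 ± 0.07). Of 30 genes for laminins, fibronectin and other matrix scaffolds 24 fell and 4 rose (median -1.09). LAMA4 fell from 47.3 ± 0.558 to 3.16 ± 0.220 CPM (-3.90 ± 0.07), the collagen cross-linker LOXL4 fell by 3.41 ± 0.07 and FN1, fibronectin, fell by 1.10 ± 0.07. LAMB3, a chain of an epithelial laminin, rose from 174 ± 5.21 to 622 ± 29.1 CPM (1.84 ± 0.06).

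Matricellular and protease genes showed both directions. Of 19 matricellular genes 13 fell and 5 rose (median -1.01). The YAP-responsive genes CYR61 (2.09 ± 0.04) and CTGF (1.32 ± 0.05) rose, while their family members NOV (-2.29 ± 0.07) and WISP1 (-3.64 ± 0.19) fell. SPARC, a bone matrix protein gene, fell from 2004 ± 34.6 to 1115 ± 32.6 CPM (-0.85 ± 0.04) and SMOC1 fell by 3.33 ± 0.05. Of 31 metalloproteinases, plasminogen activators and inhibitors 13 rose and 14 fell (median 0.05), beside 39.6% and 40.9% of all genes tested. Beside MMP1, the stromelysin MMP3 rose from 0.470 ± 0.135 to 103 ± 4.34 CPM (7.74 ± 0.13). PLAU, the urokinase gene, was at 59.1, 63.0, 64.7, 65.4 and 61.5 CPM in mock and at 570.2, 628, 611, 586 and 605 CPM with dhelix FOXP2. It was separated in all libraries (3.26 ± 0.06), and its receptor PLAUR (2.33 ± 0.06) rose too. The gelatinase MMP2 fell from 932 ± 9.95 to 201 ± 6.59 CPM (-2.21 ± 0.05), its inhibitor TIMP2 fell by 1.74 ± 0.05, MMP7 fell by 5.86 ± 0.36 and MMP13, the collagenase of cartilage and bone, fell by 3.003 ± 0.19.

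Interferon-stimulated genes were lower on balance, with 25 of 35 down and 4 up (median -1.15). IFIT1, an RNA sensor that blocks translation, was at 19.6, 21.2, 19.3, 19.4 and 18.2 CPM in mock and at 1.62, 1.08, 1.60, 2.08 and 0.696 CPM with dhelix FOXP2. No dhelix library reached a mock library (-3.76 ± 0.14, adjusted p = 2.42e-24). IFI44L (-3.88 ± 0.18), TRIM22 (-2.74 ± 0.10), OASL (-2.57 ± 0.08) and SAMD9 (-2.49 ± 0.10) fell as well, as did STAT2, part of the factor that drives these genes (-1.33 ± 0.05). ISG20 (1.25 ± 0.08) and the transcription factor IRF1 (0.72 ± 0.07) rose. The sensor gene DDX58 and the DNA-sensing adaptor gene TMEM173 did not pass the test, at 18.3 against 17.5 CPM and 3.41 against 3.57 CPM.

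Genes of the mesenchymal programme of these cells moved unevenly. In the smooth muscle and actin list 9 of 31 rose and 17 fell (median -0.56): beside MYOCD and KANK4, TPM1, an actin-binding tropomyosin, fell from 579 ± 19.2 to 111 ± 4.39 CPM (-2.38 ± 0.05), while TAGLN, transgelin, rose by 1.79 ± 0.08 and CSRP1 by 0.97 ± 0.04. Of 36 TGF-β and BMP genes 26 fell and 10 rose (median -0.44). PMEPA1, a TGF-β feedback gene, fell from 515 ± 10.2 to 90.5 ± 3.03 CPM (-2.51 ± 0.05), and the inhibitory SMAD6 (-3.29 ± 0.10), the ligand TGFB2 (-2.25 ± 0.08) and the BMP antagonist CHRD (-2.05 ± 0.09) fell. The co-receptor gene ENG rose by 1.81 ± 0.10 and the receptor gene TGFBR2 by 0.95 ± 0.04. RUNX2, the master transcription factor of osteoblasts, was at 57.2, 59.6, 57.6, 55.9 and 60.6 CPM in mock and at 10.6, 9.17, 9.40, 9.37 and 10.1 CPM with dhelix FOXP2, with no overlap (-2.58 ± 0.05). In the osteoblast list 6 of 14 rose and 5 fell, beside 39.6% and 40.9% of all genes tested. Its median was -0.05, and -0.029 without dhelix replicate 5. ALPL, bone alkaline phosphatase, rose by 2.001 ± 0.12 and PHEX fell (-1.65 ± 0.17).

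Among its own family, FOXP1, a dimer partner of FOXP2, was at 53.1, 51.0, 53.4, 56.1 and 51.6 CPM in mock and at 7.54, 6.86, 7.56, 6.24 and 6.73 CPM with dhelix FOXP2. All dhelix libraries lay below all mock libraries (-2.92 ± 0.07, adjusted p = 1.61e-29), FOXP4 fell by 0.76 ± 0.07, and FOXP3 did not pass the test, at 1.04 and 1.19 CPM. Of 22 other forkhead genes 6 rose and 12 fell (median -0.18). FOXS1 fell from 31.6 ± 1.43 to 0.394 ± 0.0800 CPM (-6.29 ± 0.14) and FOXN3 from 128 to 36.2 CPM (-1.81 ± 0.05), and FOXA1, a pioneer factor of epithelia, rose from 0.171 to 2.93 CPM (4.13 ± 0.21). Of 21 genes described elsewhere as FOXP2 targets 6 rose and 13 fell (median -0.58). CNTNAP2, a neurexin-family adhesion gene linked to language disorders, fell from 15.1 ± 0.835 to 0.524 ± 0.0741 CPM (-4.83 ± 0.15), the muscle calcium pump regulator SLN fell by 4.24 ± 0.20 and the planar polarity gene PRICKLE1 fell by 2.47 ± 0.05. MET, the HGF receptor, rose from 50.4 ± 1.06 to 197 ± 5.48 CPM (1.97 ± 0.05), and PLAUR, named above, is on this list too. SRPX2, a ligand of PLAUR, fell by 0.41 ± 0.04.

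Guidance genes, which steer growing axons and migrating cells, were mostly lower. Of 30 semaphorin, plexin and neuropilin genes 21 fell and 4 rose (median -0.76). SEMA6A (-2.88 ± 0.10), SEMA3E (-2.37 ± 0.06) and SEMA3B (-2.28 ± 0.09) fell, and SEMA7A, a membrane-anchored semaphorin, rose from 37.8 ± 1.25 to 247 ± 11.1 CPM (2.71 ± 0.05) with the plexin gene PLXNA2 (2.51 ± 0.06). Of 37 ephrin, netrin and Slit genes 25 fell and 9 rose (median -0.63). The netrin receptor gene UNC5C fell from 27.6 ± 1.32 to 0.716 ± 0.287 CPM (-5.25 ± 0.12), whereas DCC, the other main netrin receptor gene, rose from 0.666 to 4.76 CPM (2.80 ± 0.14). The Eph receptor genes EPHB1 (3.26 ± 0.06) and EPHA2 (1.62 ± 0.06) rose, and EPHB6 (-2.38 ± 0.08) and EPHB3 (-2.58 ± 0.07) fell.

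Proliferation genes moved little and in both directions, beside 39.6% of all genes tested that rose and 40.9% that fell. Of 42 mitotic genes 15 rose and 17 fell (median -0.01, which turned to 0.002 with DESeq2 size factors and 0.009 without dhelix replicate 5), from AURKA at 0.68 ± 0.03 to CENPF at -0.96 ± 0.05, and MKI67, which encodes Ki-67, was at -0.64 ± 0.03. DNA replication genes divided in a similar way: of 50 tested, 20 rose and 22 fell (median -0.04), from CDC25A at 1.14 ± 0.04 to E2F2 at -1.17 ± 0.06. The growth arrest gene GADD45A (2.26 ± 0.06) and the cell-cycle inhibitor CDKN1A (0.70 ± 0.05) rose. They are single genes from the list that is not reported here, and a growth arrest response was not tested. Of 28 histone genes, which mostly lack poly(A) tails, 7 rose and 11 fell (median -0.21, and -0.324 without dhelix replicate 5, the library rich in RNA without long poly(A) tails).

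Metabolic lists held a few large changes. Of 34 glycolysis and hypoxia genes 23 rose and 8 fell (median 0.31). HK2, the inducible hexokinase, went from 18.0 ± 1.06 to 164 ± 2.23 CPM (3.19 ± 0.05), BNIP3, a mitophagy receptor, rose by 2.56 ± 0.06 and LDHA, lactate dehydrogenase, by 0.69 ± 0.03. Of 32 cholesterol and fatty acid genes 9 rose and 16 fell (median -0.13). HMGCS1, which makes HMG-CoA for sterol synthesis, was at 130.0, 134, 126, 125 and 126 CPM in mock and at 614, 668, 627, 622 and 648 CPM with dhelix FOXP2, with no overlap (2.31 ± 0.05). The regulator SREBF2 fell by 1.37 ± 0.05 and the desaturase FADS2 from 359.9 ± 9.17 to 80.3 ± 3.95 CPM (-2.16 ± 0.06). Of 32 lysosome and autophagy genes 16 rose and 16 fell (median 0.09), with the cholesterol transporters of the lysosome apart, NPC1 at 1.44 ± 0.03 and NPC2 at -1.34 ± 0.05. Of 19 circadian clock genes 6 rose and 9 fell (median -0.06). BHLHE41, a repressor in the clock, fell from 146 ± 5.27 to 7.44 ± 0.259 CPM (-4.30 ± 0.05), DBP fell by 1.92 ± 0.07 and PER3 fell by 1.23 ± 0.04, and PER1 rose by 0.89 ± 0.08. Of 83 ribosomal protein genes 71 rose and 2 fell, by a median of only 0.30. Of 9 lysophospholipid receptor genes 2 rose, LPAR6 and S1PR1 (2.79 ± 0.13), and 7 fell, including S1PR3, which fell by 2.03 ± 0.05.

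Markers of other cell types were read as a check of the label. The summed level of the 15 mesenchymal markers in the table was 8385 to 8612 CPM in mock and 4845 to 5051 CPM with dhelix FOXP2, with TWIST1 at 0 in all 10 libraries, and of 13 tested 3 rose and 8 fell (median -0.85). Epithelial markers summed to 410.1 to 453 and 652 to 699 CPM, but of 10 tested 3 rose and 6 fell (median -0.39). KRT18 rose by 1.40 ± 0.04, CDH1 (E-cadherin) from 0.377 to 1.34 CPM (1.84 ± 0.22), and KRT14 fell from 24.8 to 0.575 CPM (-5.41 ± 0.10). The 20 blood and immune markers summed to 8.18 to 10.3 CPM in mock and 41.0 to 46.4 CPM with dhelix FOXP2: 14 of 20 stayed under 1 CPM, CD2, CD3E and TYROBP were at 0, and of the 8 with enough counts to test 7 rose and 1 fell (median 3.15). The gene that fell was PTPRC (CD45), the pan-leukocyte marker, at 0.300 CPM in mock and 0.133 CPM with dhelix FOXP2, a call that was lost when any 1 of mock replicates 3 and 4 or dhelix replicates 2 and 5 was left out (adjusted p of 0.0553 to 0.0897). The integrin gene ITGAX rose from 5.63 to 20.9 CPM (1.87 ± 0.10). Endothelial markers summed to 16.6 to 20.9 and 45.8 to 49.0 CPM, with CLDN5 at 0, 5 of 9 tested up and 2 down (median 0.90), and TIE1 up from 0.260 to 14.5 CPM (5.79 ± 0.16), and neuronal markers to 138 to 141 and 176 to 182 CPM, with 6 of 11 tested up and 3 down (median 0.56). SYP, a synaptic vesicle protein gene, rose from 4.07 ± 0.543 to 85.4 ± 4.08 CPM (4.40 ± 0.08), and MAP2, a dendritic marker, fell from 38.7 ± 2.71 to 1.12 ± 0.272 CPM (-5.09 ± 0.11). In the list of mucins and MAL-like genes 8 of 14 rose and 4 fell (median 0.88), with MLC1, an astrocyte membrane protein gene that was listed with them, up from 0.579 ± 0.160 to 114 ± 9.39 CPM (7.64 ± 0.11). The part of other cell types' markers in the results was not tested.

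The second comparison set the dhelix libraries against the WT libraries directly. Of 18485 genes 6589 (35.6%) passed, 3124 (16.9%) higher and 3465 (18.7%) lower with dhelix FOXP2, mostly by small amounts: 345 were at least 2-fold higher and 129 at least 2-fold lower. For 5531 genes (29.9%) the dhelix and WT libraries did not overlap. The balance of directions depended on the settings: with no filter on low counts 3862 genes were higher and 2274 lower (62.9% higher, beside 47.4%), and with only the 10 libraries compared 4149 were higher and 4017 lower. In the test against a 1.5-fold change 260 genes passed, 193 higher and 67 lower. The 8 leading genes per direction were picked among genes whose dhelix and WT libraries did not overlap, so their separation was set by the choice. INSIG1, NID1, EPHA4, SYK, ADAMTS4, VWF and NR1D1 below were picked from the lists after their values were seen. All values here set 2 transfected groups side by side, with FOXP2 RNA at 0.752 times the WT level in one of them.

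MUC5AC was at 34.6, 46.1, 41.8, 38.0 and 40.3 CPM with dhelix FOXP2 and at 3.75, 5.13, 5.37, 6.49 and 4.94 CPM with WT FOXP2, against 0.0473 CPM in mock. Every dhelix library was above every WT library (2.95 ± 0.10, adjusted p = 7.33e-22). MAL was at 35.5 ± 3.34 CPM with dhelix FOXP2 and 5.08 ± 0.956 CPM with WT FOXP2 (2.80 ± 0.09), and MLC1 at 114 ± 9.39 and 33.1 ± 4.32 CPM (1.79 ± 0.06). The non-coding RNAs LINC00659 (2.95 ± 0.13), AC114730.3 (3.16 ± 0.25) and CTD-2561B21.5 (2.93 ± 0.26) were higher as well. Of 14 mucin and MAL-like genes 10 were higher than with WT FOXP2 and 1 lower. The signal recognition particle RNAs RN7SL1, RN7SL2 and RN7SL3 also stood among the 8 most raised genes, but they rested in large part on dhelix replicate 5, the library rich in RNA without long poly(A) tails. RN7SL1 was at 11.3, 20.2, 9.57, 14.6 and 173 CPM in dhelix replicates 1 to 5, and without replicate 5 its change was 1.40 instead of 3.06, with RN7SL2 at 2.82 instead of 3.84 and RN7SL3 at 1.16 instead of 2.92. Without it RN7SL1 (adjusted p = 0.121) and RN7SL3 (0.282) no longer passed edgeR's test, and RN7SL2 did (0.00493). Neither RN7SL1 (0.0685) nor RN7SL3 (0.131) passed with only the 10 libraries compared, and RN7SL3 did not pass without WT replicate 2 (0.0530).

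On the other side stood genes that were lower with dhelix FOXP2 than with WT FOXP2. EGR4, an immediate-early factor, was at 1.90, 4.06, 2.67, 2.57 and 2.55 CPM with dhelix FOXP2 and at 9.58, 12.7, 12.4, 13.6 and 10.3 CPM with WT FOXP2 (-2.08 ± 0.13, adjusted p = 4.58e-14), and both groups lay above mock, at 0.0474 CPM. The immunity-related GTPase gene IRGM was at 1.60 ± 0.0488 and 6.70 ± 0.679 CPM (-2.07 ± 0.12), the axonemal dynein gene DNAH3 at 1.18 ± 0.152 and 5.60 ± 0.803 CPM (-2.24 ± 0.13) and the chemokine receptor gene CCR4 at 0.664 ± 0.111 and 3.36 ± 0.284 CPM (-2.34 ± 0.17). RP11-206M11.7, RP11-10O17.1, RP11-70C1.1 and RP11-844P9.2 completed the 8, from -2.25 ± 0.21 for RP11-206M11.7 to -1.46 ± 0.14 for RP11-844P9.2. These genes were low in all groups, at most 11.7 CPM on average, the value of EGR4 with WT FOXP2.

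In the NF-κB, AP-1, EGR and ATF4 lists more members were lower than higher against WT FOXP2. Of 23 NF-κB genes 16 were lower and 0 higher than with WT FOXP2 (median -0.21), of 15 AP-1 factors 10 lower and 2 higher (median -0.22), of 30 EGR and MAP kinase genes 18 lower and 1 higher (median -0.21), and of 41 ATF4 targets 22 lower and 1 higher (median -0.15). Over all genes tested the median of this comparison was 0.00. DDIT3 was at 52.5, 58.0, 55.4, 55.4 and 54.9 CPM with dhelix FOXP2 and at 89.8, 106, 103, 107 and 101 CPM with WT FOXP2, from 15.6 CPM in mock. The dhelix libraries lay between the mock and WT libraries, with no overlap with WT (-0.88 ± 0.04, adjusted p = 1.76e-17). EGR1 (-0.71 ± 0.07), TNFAIP3 (-0.75 ± 0.05), PPP1R15A (-0.71 ± 0.05), IL8 (-0.94 ± 0.07) and FOSL1 (-0.57 ± 0.06) were lower in the same sense. IL11 went the other way (0.26 ± 0.05). The clock repressor NR1D1 was at 42.5, 42.1, 43.5, 41.7 and 40.5 CPM with dhelix FOXP2 and at 76.5, 89.1, 90.3, 90.3 and 88.4 CPM with WT FOXP2 (-1.05 ± 0.06), and 11 of 19 clock genes were lower and 1 higher.

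In other lists more members were higher than lower against WT FOXP2. Of 83 ribosomal protein genes 62 were higher and 2 lower (median 0.17), of 27 ER chaperone genes 11 higher and 2 lower (median 0.06), and of 32 collagen chains 11 higher and 2 lower (median 0.16). INSIG1, which holds the sterol regulator SCAP in the ER, was at 48.1, 55.0, 49.9, 49.4 and 49.3 CPM with dhelix FOXP2 and at 18.1, 19.9, 20.3, 19.4 and 20.5 CPM with WT FOXP2, and at 21.9, 22.1, 20.4, 21.8 and 21.4 CPM in mock. WT libraries lay at or just below the mock range, and every dhelix library was above both (1.36 ± 0.06 against WT FOXP2, adjusted p = 3.80e-20). NID1, the basement membrane linker nidogen, was at 390.1 ± 8.18 CPM with dhelix FOXP2, 223 ± 4.88 with WT FOXP2 and 276 ± 5.70 in mock (0.81 ± 0.04 against WT FOXP2). The kinase gene SYK (2.42 ± 0.23), the aggrecanase gene ADAMTS4 (2.03 ± 0.17) and VWF, the von Willebrand factor gene (1.96 ± 0.15), were at least 2-fold higher. EPHA4 went the other way, at 6.90 ± 0.546 CPM with dhelix FOXP2, 16.1 ± 1.57 with WT FOXP2 and 23.6 ± 0.875 in mock (-1.22 ± 0.08 against WT FOXP2).

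Wnt genes differed between the constructs in both directions. AXIN2 was at 9.94, 9.06, 10.1, 11.2 and 9.56 CPM with dhelix FOXP2 and at 8.72, 8.87, 7.25, 8.55 and 7.11 CPM with WT FOXP2, slightly higher with the deletion (0.30 ± 0.12, adjusted p = 0.0456). The groups did not overlap, but this call was lost, with an adjusted p of 0.0535 to 0.138, when any 1 of dhelix replicates 1, 3 and 4 or WT replicates 3, 4 and 5 was left out. CTNNB1 was at 289.5 ± 1.67 and 350.3 ± 4.12 CPM, lower with the deletion (-0.27 ± 0.03, adjusted p = 7.38e-10), and LEF1 did not pass the test (0.01 ± 0.06, adjusted p = 0.953). Of 23 ligands and secreted regulators 9 were higher and 1 lower, the last not called without dhelix replicate 5. WNT11 was at 0.446 ± 0.0702 and 0.0967 ± 0.0607 CPM and WNT7B at 8.12 ± 0.835 and 3.53 ± 0.520 CPM (1.22 ± 0.12). Of 25 genes of β-catenin and its partners 1 was higher, TLE2 (0.33 ± 0.09), and 10 lower, and of 21 feedback genes and targets 5 were higher and 5 lower. NOTUM stood at 5.71 ± 0.397 and 2.91 ± 0.451 CPM (0.99 ± 0.13).

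**Figure D4:**
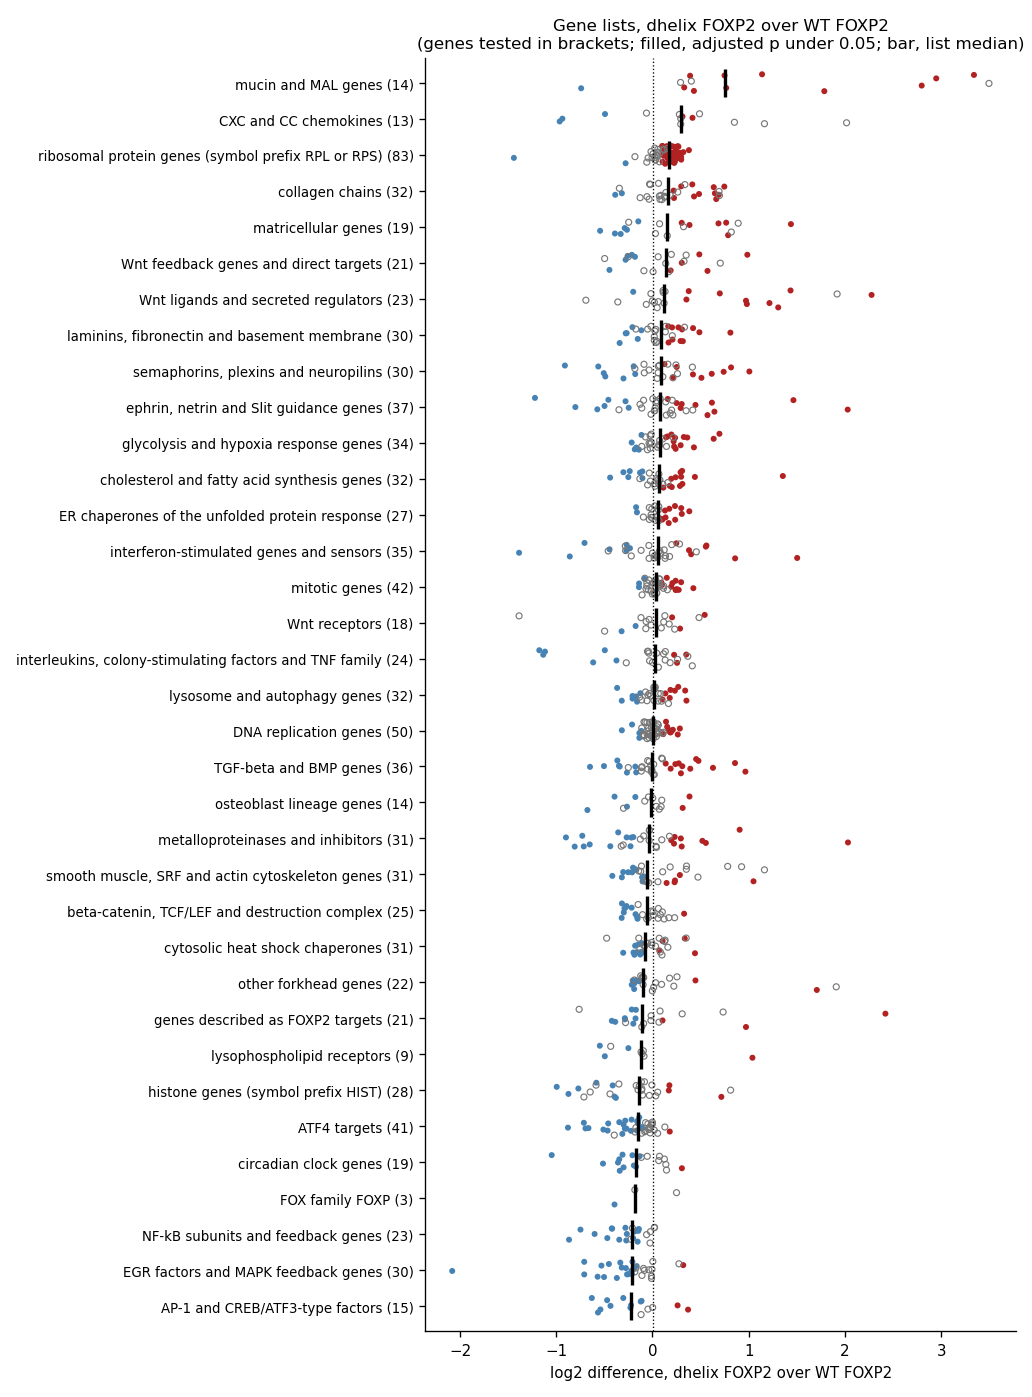
Each point is 1 tested gene of the list named on the y axis, placed by its log2 difference of dhelix FOXP2 over WT FOXP2 on the x axis. Filled points passed the threshold and black bars are list medians, such as -0.21 for NF-κB and 0.17 for ribosomal protein genes.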

How the data were processed

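RNA-seq of poly(A)-selected RNA was done by the submitters with 5 biological replicates per group. STAR 2.6.1a, Subread, featureCounts, DESeq2 and hg19 are named in the submitters' processing notes, while the annotation release and counting options are not given in those sources. The authors deposited raw counts for 57373 genes in 30 libraries. Gene IDs were matched to symbols with the deposited names. Overlapping genes, antisense genes and near-identical copies (histone, ribosomal protein, mucin and RN7SL genes) may share reads, and their values are uncertain. From the counts, edgeR 4.0.16 (R 4.3.3) tested 18485 genes that passed filterByExpr over the 6 groups, with TMM scaling, robust quasi-likelihood fits of all 30 libraries, 1 mean per group, and Benjamini-Hochberg adjustment at 0.05. The p-values of edgeR set a difference against the spread between replicate libraries, as estimated over all 30 libraries. Against a group with 0 counts, folds use a floor of 3 counts per library; ratios with 1 to 3 counts have 95% intervals that cover counting error only. Total counts of 15755842 to 29466652 put 1 count near 0.05 CPM. Named genes were FOXP2, CTNNB1, AXIN2 and LEF1, and the 12 per direction against mock and 8 against WT FOXP2 with the largest change. Those 12 and 8 were picked among called genes that averaged 1 CPM or more and whose libraries did not overlap. Up to 5 members of a list were named among called genes of that level, whether or not libraries overlapped, with members that its roles require. Some list members with larger changes are not named. The members and the 36 gene lists and 5 marker lists were chosen with earlier results of these data known. Alternatives were other scaling, filters, libraries and tools; list counts without dhelix replicate 5 and with DESeq2 size factors were added after seeing the data. The script was tested on simulated data. Promoters come from RefSeq and coding sequence from GENCODE 29, both GRCh38, used for letters only; counts are on hg19 and no coordinates were converted. Some genes and 1 gene list that the rules selected are not reported here.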

Additional observations from a re-analysis of the deposited data

Results flagged for a closer look

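Within groups of 5 libraries, a value was singled out where its gap to the nearest other library exceeded 0.71 of the group's range (Dixon's criterion). Among 499 groups of values of the named genes 32 were singled out, and chance alone gives about 1 in 20. For 3 signal recognition particle RNAs the value singled out was in dhelix replicate 5, the library rich in RNA without long poly(A) tails: RN7SL1 stood at 173 CPM there and at 9.57 to 20.2 CPM in the other dhelix libraries, RN7SL2 stood at 88.9 CPM there and at 7.77 to 21.9 CPM in the other dhelix libraries and RN7SL3 stood at 11.5 CPM there and at 0.555 to 1.26 CPM in the other dhelix libraries. In 9 near-silent genes 1 library held the only counts of its group: ABCB5 in dhelix FOXP2 replicate 4 (0.0378 CPM), CCDC67 in dhelix FOXP2 replicate 2 (0.0350 CPM), CTD-2532D12.4 in mock replicate 3 (0.0330 CPM), CTD-2561B21.5 in mock replicate 3 (0.0659 CPM), CXCL6 in dhelix FOXP2 replicate 3 (0.0347 CPM), GABRR1 in dhelix FOXP2 replicate 4 (0.0378 CPM), KANK4 in dhelix FOXP2 replicate 1 (0.0359 CPM), MAL in mock replicate 2 (0.0489 CPM) and RP11-798L4.1 in dhelix FOXP2 replicate 4 (0.0378 CPM). High single values were AURKA in dhelix FOXP2 replicate 5 (244 CPM, others 236 to 238), HK2 in dhelix FOXP2 replicate 2 (168 CPM, others 162 to 164), HSPB8 in dhelix FOXP2 replicate 3 (84.4 CPM, others 79.7 to 80.8), INSIG1 in dhelix FOXP2 replicate 2 (55.0 CPM, others 48.1 to 49.9), KRT14 in dhelix FOXP2 replicate 1 (0.790 CPM, others 0.490 to 0.555), NPC2 in dhelix FOXP2 replicate 1 (106 CPM, others 93.7 to 96.8), PHGDH in dhelix FOXP2 replicate 3 (151 CPM, others 138 to 141), SPRR2D in dhelix FOXP2 replicate 2 (3.81 CPM, others 2.57 to 2.88) and TIE1 in mock replicate 2 (0.391 CPM, others 0.198 to 0.243). Low single values were BIRC3 in dhelix FOXP2 replicate 3 (23.3 CPM, others 26.3 to 27.2), EPHB6 in mock replicate 2 (46.9 CPM, others 50.5 to 51.8), GADD45A in dhelix FOXP2 replicate 4 (70.8 CPM, others 76.3 to 78.3), NID1 in dhelix FOXP2 replicate 4 (376 CPM, others 393 to 395), NR1D1 in WT FOXP2 replicate 1 (76.5 CPM, others 88.4 to 90.3), OASL in mock replicate 5 (16.1 CPM, others 18.0 to 18.7), PMEPA1 in mock replicate 4 (497 CPM, others 518 to 520.3), SRPX2 in mock replicate 4 (32.9 CPM, others 35.0 to 35.9), STAT2 in mock replicate 5 (97.2 CPM, others 104 to 106), TCF7L1 in dhelix FOXP2 replicate 5 (3.06 CPM, others 3.55 to 3.68) and TMEM173 in mock replicate 2 (2.84 CPM, others 3.46 to 3.69).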

How the results depend on the processing

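The counts of genes past the threshold stayed within 1.5 times of 14880 against mock and 6589 against WT FOXP2 under every alternative but one. In the test against a 1.5-fold change 7455 genes passed against mock and 260 against WT FOXP2. Across the other settings (DESeq2 size factors, the replicate block, no low-count filter, a filter at 1 CPM, library sizes without FOXP2, only the 10 libraries compared, DESeq2's Wald test) the counts ran from 12799 to 17356 against mock and from 6136 to 8166 against WT FOXP2. Leaving out 1 library at a time gave 14645 to 14845 and 5874 to 6313. The FOXP2 change ran from 12.44 to 12.66 when 1 library was left out. With the replicate block 14913 and 6648 genes passed. Deviations of same-numbered libraries were at most weakly correlated (-0.01 to 0.031 with mock and -0.026 to 0.075 with WT FOXP2). Of the dhelix libraries, 3 of 5 and 2 of 5 correlated best with their own number. Whether same-numbered libraries share a preparation was not tested. Of 41 list medians against mock 1 changed sign under DESeq2 size factors, that of mitotic genes (-0.01 to 0.002), and the largest shift was 0.0144; without dhelix replicate 5 the same 1 changed sign (0.009). Against WT FOXP2 the share of called genes that were higher, 47.4%, ran from 46.6% to 51.4% when 1 library was left out and was 51.3% with a filter at 1 CPM, 62.9% with no filter and 50.8% with only the 10 libraries compared. No list count against mock moved by more than 2 genes without dhelix replicate 5, and none against WT FOXP2 by more than 3. Of 4557 values of 269 gene results under the alternatives, 21 were no longer past the threshold. Among values past the threshold in the main fit or the alternative, 0 changed direction. Direction was not counted for values past it in neither. These values leave out the test against a 1.5-fold change, which among single genes was read only for FOXP2 against mock. For genes that do not reach about 1 CPM, the depth of the libraries limits what can be seen, and fold changes against groups near 0 depend on single counts.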
